A study of Mus musculus with 6 samples.

Results

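The fatty acid binding protein genes described here are Fabp7, Fabp1, Fabp3 and Fabp5, 4 of 22087 genes tested on whole-kidney arrays. They were taken as the transcript clusters (the array's probe groups for a transcript) whose single platform symbol names the gene, with the cluster of the highest mean kept for each symbol, so the clusters were chosen by their mean level over the 6 arrays. The family was put forward with the fall of Fabp7 already known. The metformin contrast of these 4 genes is therefore given as a description, and a member that passes a threshold gives no independent evidence. All 4 passed the filter on low values, a mean over the 6 arrays above 4.03 log2 units.

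The kidneys came from female Pkd1 miR transgenic mice, a model of polycystic kidney disease in which a transgene is directed against Pkd1. All 6 mice carry the transgene, and the sources used here do not name the promoter that drives it. The 3 saline mice were injected with saline and the 3 metformin mice with 150 mg per kg per day of metformin, a biguanide used in diabetes, into the peritoneum. Treatment lasted from postnatal day 35 to day 63, the age at which kidneys were collected. Total RNA of 1 kidney sample per mouse went onto 1 array, and the labels call the arrays biological replicates. All 10 markers of the proximal tubule, 6 of the loop of Henle and distal tubule and 7 of the collecting duct that were looked for lay above the filter on low values. Values are log2 expression as deposited, and array medians ranged from 4.67 to 4.86. Upper quartiles were 7.01 to 7.12 on the saline arrays and higher, 7.21 to 7.34, on the metformin arrays. The cause of this shift was not tested. Signal depends on each gene's probes, so levels are compared between groups and not between genes.

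Fatty acid binding proteins are small cytosolic carriers that hold a long-chain fatty acid or a related lipid inside a barrel of beta strands. They pass it to mitochondria, peroxisomes and the endoplasmic reticulum, and to the nucleus, where fatty acids are ligands of the peroxisome proliferator-activated receptors (PPARs). Fabp7 is the brain type, best known from radial glia and other glial cells. Fabp1 is the liver type, which in human kidney is found in proximal tubule cells and is measured in urine as a sign of tubular stress. Fabp3 is the heart and muscle type, and Fabp5 is the epidermal type.

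The sequences upstream of Fabp7, Fabp1 and Fabp3 are shown because PPARs bind DNA at copies of the motif AGGTCA. For Fabp5 no such sequence was at hand. Each is the run of 250 bases before the RefSeq start of the gene in GRCm38.p6, 5′ to 3′ on the plus strand. Capitals mark AGGTCA or its opposite strand TGACCT, the TATA box letters TATAAA, and in Fabp1 a repeat of the first motif that is described with its match. RefSeq's promoter table held 3 of the 4 members.
Fabp7 (chr10:57784673-57784922): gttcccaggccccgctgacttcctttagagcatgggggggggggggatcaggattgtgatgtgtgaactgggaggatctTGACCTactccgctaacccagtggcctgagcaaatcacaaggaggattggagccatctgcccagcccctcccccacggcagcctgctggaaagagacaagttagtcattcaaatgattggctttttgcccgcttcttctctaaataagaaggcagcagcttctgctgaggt
Fabp1 (chr6:71199629-71199878): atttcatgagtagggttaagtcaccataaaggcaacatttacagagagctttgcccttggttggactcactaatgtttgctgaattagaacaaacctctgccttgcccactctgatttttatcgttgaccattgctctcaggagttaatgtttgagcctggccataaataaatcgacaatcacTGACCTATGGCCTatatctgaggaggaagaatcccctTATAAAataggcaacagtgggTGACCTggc
Fabp3 (chr4:130308488-130308737): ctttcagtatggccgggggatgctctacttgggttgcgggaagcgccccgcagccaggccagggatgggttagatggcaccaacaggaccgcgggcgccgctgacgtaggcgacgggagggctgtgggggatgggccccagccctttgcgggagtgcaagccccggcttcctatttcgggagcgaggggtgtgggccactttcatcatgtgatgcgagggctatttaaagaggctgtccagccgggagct
Searched on both strands, AGGTCA occurred 1 time upstream of Fabp7, starting 171 bases before the gene. It occurred 2 times upstream of Fabp1, starting 67 and 9 bases before it, and 0 times upstream of Fabp3. Of 32851 RefSeq windows of the same length, 14.0% held it. A pair of such motifs spaced by 1 base is the arrangement that PPARs bind together with RXR. With strict letters, AGGTCANAGGTCA, it was found upstream of none of these 3 genes and in 0.0335% of all windows. With 1 letter freed after the Fabp1 sequence had been seen, AGGNCANAGGTCA, it matched Fabp1 from 67 to 55 bases before the gene, overlapping the single motif there, and was held by 0.0822% of all windows. TATAAA on either strand stood in 12.4% of windows and upstream of Fabp1, 30 bases before the gene, and not in the windows of Fabp7 and Fabp3. A match is a match of letters only.

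Fabp7 was the member with the widest difference between the groups. It read 9.91, 8.28 and 9.28 on saline replicates 1 to 3, against 7.0, 7.04 and 7.64 on metformin replicates 1 to 3. Every metformin array lay below every saline array, with 0.64 log2 units between the lowest saline and the highest metformin value. The mean went from 9.16 ± 0.82 with saline to 7.23 ± 0.36 with metformin (SD, n = 3 per group). This is a difference of -1.93 ± 0.39 log2 units (SE of limma's fit; 95% interval -2.84 to -1.03), a signal 3.82-fold lower or 26.2% of saline. Of the 22087 genes, 18 including Fabp7 had a difference at or below this one, of which 9 passed the threshold, an adjusted p under 0.05.

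**Figure D1:**
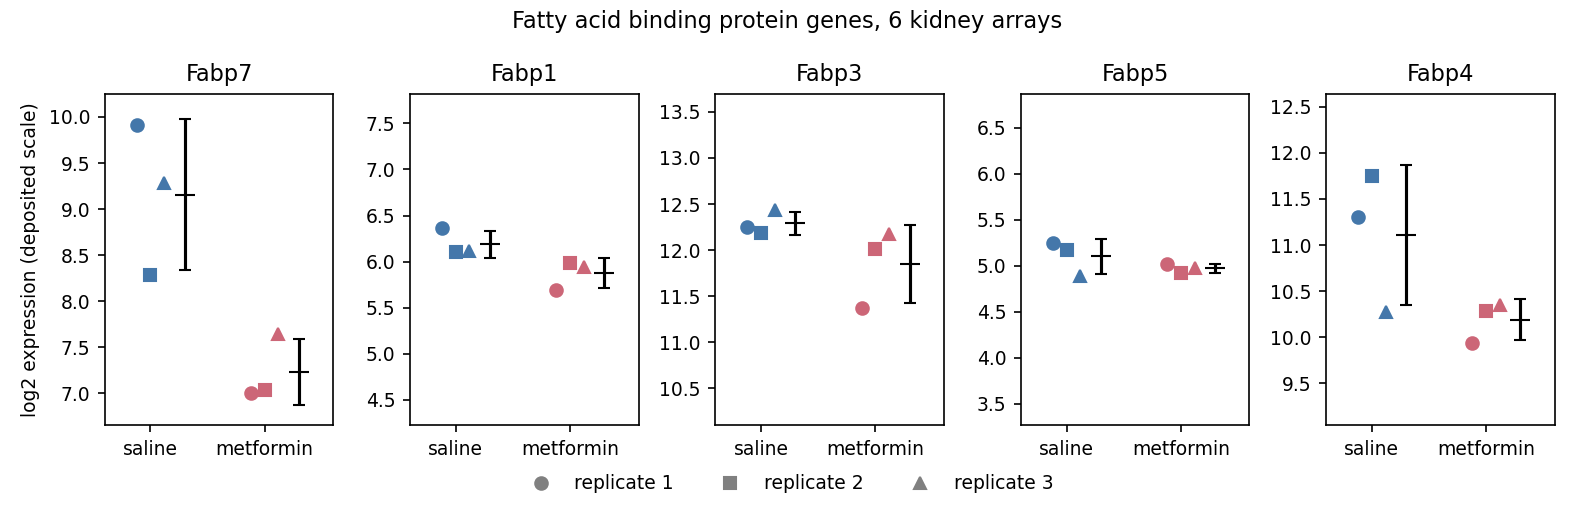
Log2 expression of the 4 members and of Fabp4 on each array. Each panel spans the same number of log2 units on its vertical axis, points are mice (shape gives the replicate number of the labels), and black bars are the mean with its SD (n = 3 per group). The metformin points of Fabp7, Fabp1 and Fabp3 lie below the saline points, by 0.64, 0.108 and 0.019 log2 units at the closest, and those of Fabp5 and Fabp4 overlap.

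Fabp1 had saline values of 6.36, 6.1 and 6.11 and metformin values of 5.69, 5.99 and 5.94. The groups did not overlap, and the closest arrays were 0.108 apart. The difference was -0.32 ± 0.12 log2 units (SE; 95% interval -0.60 to -0.03), or 1.24-fold, with SDs within the groups of 0.15 and 0.16 (n = 3 per group).

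Fabp3 had saline values of 12.25, 12.19 and 12.43 and metformin values of 11.37, 12.01 and 12.17. The groups touched, with 0.019 log2 units between the nearest arrays, and metformin replicate 1 stood below the other metformin arrays. The difference was -0.44 ± 0.20 (SE; 95% interval -0.92 to 0.04), or 1.36-fold. Without metformin replicate 1 it was -0.20. A second cluster carries the Fabp3 symbol and stayed under the filter on low values, with values from 3.41 to 3.75 on the 6 arrays. The pseudogene Fabp3-ps1, looked up after the values had been seen, has a cluster of its own, with saline values of 12.26, 12.05 and 12.59 and metformin values of 11.22, 11.92 and 12.27. It has the same order of arrays within each group as Fabp3, but its groups overlapped. Its difference was -0.49 ± 0.27 (SE). Whether the probes of gene and pseudogene share signal was not tested, so the value of Fabp3 is uncertain.

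Fabp5 had saline values of 5.25, 5.17 and 4.89 and metformin values of 5.02, 4.92 and 4.97. These lie near the array medians of 4.67 to 4.86, and how far the signal of Fabp5 stands above background was not tested. The groups overlapped, and saline replicate 3 was the lowest of all 6 arrays. The difference was -0.13 ± 0.12 (SE; 95% interval -0.40 to 0.14). An interval of this width holds both no change and a difference as large as that of Fabp1, so it does not show that Fabp5 was unaffected.

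In the fit over all genes, 1 of the 4 members, Fabp7, was under the threshold. Of all genes tested 15.8% were, 9.08% lower with metformin and 6.71% higher. The groups did not overlap for 3 of the 4 members, against 37.3% of all genes (19.4% with metformin lower). The median difference of the members was -0.38 log2 units and that of all genes 0.02. Since the contrast helped to choose the family, nothing is read from these counts.

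The call of Fabp7 is a description as well, and its course over the settings shows only how far it depends on single arrays or choices. It ended in 3 of the 6 fits that left out 1 array. Leaving out saline replicate 1 gave a difference of -1.56, leaving out metformin replicate 1 gave -1.82, and leaving out metformin replicate 2 gave -1.84. The call held at -2.37 with saline replicate 2 left out, at -1.87 with saline replicate 3 left out and at -2.14 with metformin replicate 3 left out. The call also ended in a plain equal-variance test per gene. Fabp1 came under the threshold after quantile normalization of the arrays, at -0.50. All 4 members stayed below 0 in the 15 other settings tried, some of which could not change the difference itself.

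**Figure D2:**
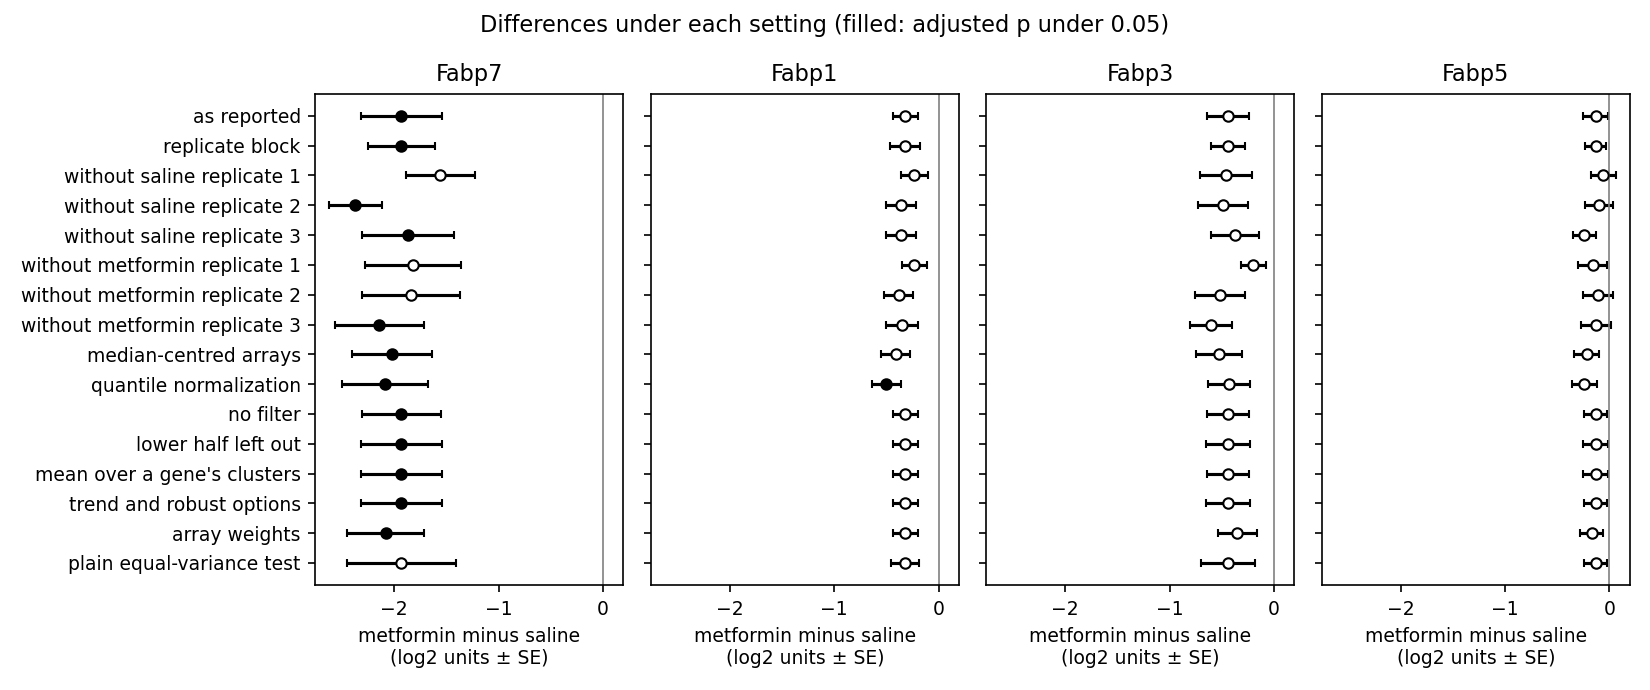
Difference between metformin and saline for each member (horizontal axis, log2 units, with the SE) under each setting (vertical axis). Filled points have an adjusted p under 0.05. Fabp7 stays between -2.37 and -1.56 and is filled in 11 of 15 alternatives, while the other members lie nearer to 0.

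The members did not share 1 profile over the mice. Metformin replicate 1 gave the lowest value of Fabp7, Fabp1 and Fabp3, and saline replicate 3 that of Fabp5. Saline replicate 1 gave the highest value of Fabp7, Fabp1 and Fabp5, and saline replicate 3 that of Fabp3. As a measure of likeness the root mean square difference was taken between 2 genes' log2 values over the 6 arrays, each gene centred on its own mean. Fabp7 was 0.891 to 1.041 away from the other members. The values were not scaled, so this distance also reflects the wider difference between the groups in Fabp7. Fabp1 was 0.173 from Fabp5 and 0.215 from Fabp3, and Fabp3 was 0.356 from Fabp5.

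Among 15591 genes with an established symbol, the nearest to Fabp7 was C1qtnf3, a secreted protein of the C1q and TNF related family, at a distance of 0.177. It read 11.16, 9.8 and 10.85 with saline and 8.2, 8.63 and 8.82 with metformin. The next were the glucuronosyltransferase Ugt2b34 (0.247), the C-type lectin Clec2h (0.301), the betaine-homocysteine methyltransferase Bhmt (0.309) and the proteoglycan Nepn (0.314). In all 5, as in Fabp7, saline replicate 2 was the lowest saline array and saline replicate 1 the highest. The genes were chosen for nearness over these same arrays, so a like order is a product of the choice. The nearest to Fabp1 were Clic3 (0.033), Rogdi (0.034) and Igfbp4 (0.042). Those nearest to Fabp3 were Zfyve21 (0.066), Rpl15-ps1 (0.071) and the brush border peptidase Anpep (0.077). Fabp3-ps1 stood at rank 45 with 0.118. For Fabp5 they were Ppp1r2 (0.024), Arl14ep (0.033) and Tox3 (0.034). Small distances are easily reached by genes that vary little, as these do.

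**Figure D3:**
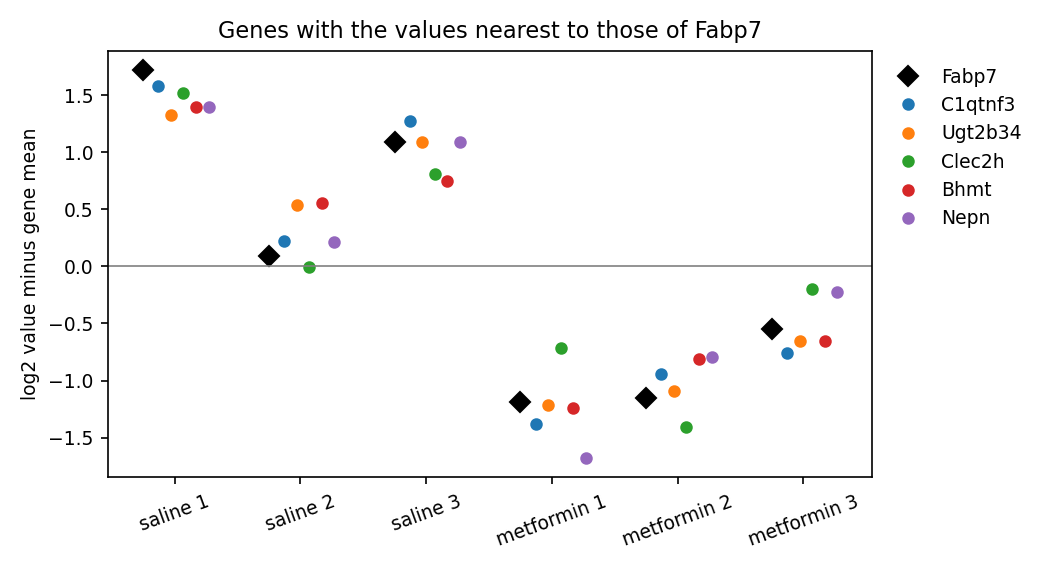
Log2 value minus the gene's own mean (vertical axis) on the 6 arrays (horizontal axis) for Fabp7 and the 5 genes nearest to it by root mean square difference, 0.177 to 0.314. In each gene the 3 saline arrays lie above the 3 metformin arrays, and saline replicate 2 is the lowest saline array. The genes were chosen by these same values.

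Mean levels of several lists of cell type markers did not overlap between the groups, as was the case for 37.3% of all genes taken singly. All 10 proximal tubule markers were below 0 in their difference, as were 47.1% of all genes. The mean log2 value of these markers was 14.73, 14.53 and 15.2 on the saline arrays and 13.62, 14.13 and 14.42 on the metformin arrays. Saline replicate 2 was the lowest saline array for these markers and for Fabp7, and metformin replicate 1 the lowest metformin array for both, but the highest saline array was replicate 3 for the markers and replicate 1 for Fabp7. The mean of 7 white adipocyte markers was 6.63, 7.22 and 5.46 with saline and 4.74 to 4.88 with metformin, and that of 6 brown adipocyte markers 6.89 to 8.36 and 6.42 to 6.61. On the metformin arrays the collecting duct markers (7 genes) averaged 11.25 to 11.49, below 11.7 to 12.01 with saline. For the hepatocyte and enterocyte markers (8 genes) these were 5.95 to 6.18 and 6.4 to 6.76, and for the loop and distal tubule markers (6 genes) 13.53 to 13.84 and 13.85 to 14.02. Of the hepatocyte and enterocyte markers 3 were under the filter on low values, among them Fabp2 of the present family, and Apoa1 was at -0.05. The macrophage markers were all higher with metformin in their difference, 7 of 7, with means of 8.46 to 9.94 with saline and 9.66 to 10.12 with metformin that overlapped. Podocyte, endothelial, muscle and urothelial markers overlapped as well, and none of them passed the threshold. Passing it were 3 of 10 proximal tubule, 0 of 6 loop and distal tubule, 4 of 7 collecting duct and 1 of 7 macrophage markers. Of those tested, 2 of 6 white adipocyte, 1 of 4 brown adipocyte and 2 of 5 hepatocyte and enterocyte markers passed, beside 15.8% of all genes. The part of proximal tubule, fat or any other cell content in the values of Fabp7 was not tested, and in whole kidney fewer cells of a type and less RNA per cell cannot be told apart.

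Fabp7 marks glia and Schwann cells elsewhere, so their markers were looked at. Of 8 markers 6 had a cluster of their own, with a mean of 5.45 to 5.53 on saline arrays and 5.32 to 5.37 on metformin arrays. Glial Gfap and Schwann cell Cdh19 were under the filter on low values. The glial regulator Sox10 had values of 4.61 to 4.99 with saline and 4.73 to 4.95 with metformin. Only Erbb3, a neuregulin receptor that epithelia also express, passed the threshold, at -0.41 ± 0.10 (SE; limma adjusted p = 0.0333), and of the fits that left out 1 array its call held in 1, that without saline replicate 3. Of 9 factors known to act on Fabp7 in neural cells, 8 were tested. The nuclear factor Nfix rose by 0.51 ± 0.12 (SE; limma adjusted p = 0.0327), a call that ended after median-centring (adjusted p = 0.0517) and quantile normalization (0.0515). Notch1 was at 0.36 (limma adjusted p = 0.0603, and 0.0479 with the replicate block, a term for the labels' replicate numbers). Nfib at 0.33, Nfic at 0.37 and Nfia at -0.02 did not pass. Pax6 was at 0.05, Hes1 at -0.18, and Pou3f2 was under the filter.

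Of the 6 other genes of the family, Fabp4, the adipocyte and capillary endothelial type, was the only one above the filter. Fabp4 read 11.3, 11.75 and 10.27 with saline and 9.94, 10.28 and 10.35 with metformin. Saline replicate 3 lay within the range of the metformin arrays. The difference was -0.92 ± 0.34 (SE; limma adjusted p = 0.112), and 0 of this group passed limma's threshold or that of the plain test, with Fabp4 at an unadjusted limma p of 0.0296. Without saline replicate 3 it was -1.34 (limma adjusted p = 0.0158). Over the alternatives fitted with limma the adjusted p was 0.0158 to 0.281, and the plain equal-variance test gave an adjusted p of 0.284. The white adipocyte markers had the same order of the saline arrays, with replicate 2 the highest and replicate 3 the lowest. The mean of 6 endothelial markers was 10.47 to 10.81 with saline and 10.34 to 10.54 with metformin. The part of fat in the value of Fabp4 was not tested.

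Fabp2, the intestinal type, ranged from 3.28 to 3.59 over the 6 arrays, and the ileal bile acid carrier Fabp6 from 3.36 to 3.82. Fabp9, known from testis, ranged from 3.37 to 3.63, Fabp12 from 3.7 to 4.03 and the myelin protein Pmp2 from 2.99 to 3.26. The means of these genes lie under the filter on low values, and whether they stand above background was not tested. In the order of protein-coding genes in GRCm38.p6, Fabp5, Pmp2, Fabp9, Fabp4 and Fabp12 follow each other without another such gene between them. Within this row, Fabp5 was at -0.13, Fabp4 at -0.92, and the other 3 were under the filter.

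Genes that act beside fatty acid binding proteins were taken from 8 lists, 74 tested genes in all, of which 19 fell and 1 rose, where 9.08% of all genes fell and 6.71% rose. Their median was -0.18, beside 0.02 for all genes. The lists were drawn up with earlier results of these data known. The 16 tested PPAR targets held 9 of those that fell and none that rose, with a median of -0.64. Marker medians were -0.84 for the proximal tubule, -0.58 for the collecting duct and -0.13 for the loop and distal tubule. The part of cell content in the values of the PPAR targets was not tested. The acyl-CoA thioesterase Acot2 (-1.62) and its close paralog Acot1 (-1.22), whose probes may share signal, were among the PPAR targets that fell. So were the carnitine-acylcarnitine carrier Slc25a20 (-1.31), the pantetheinase Vnn1 (-1.25), the trifunctional enzyme subunits Hadhb (-1.11) and Hadha (-0.45), the peroxisomal thiolase Acaa1b (-0.95) and the fatty acid hydroxylase Cyp4a14 (-0.74). The mitochondrial carnitine palmitoyltransferase Cpt2 was at -0.50 (limma adjusted p = 0.0450, and 0.0519 with the replicate block). With that block Cpt1a at -0.52 (limma adjusted p = 0.0555, and 0.0345 with it) and the peroxisomal enzyme Ehhadh at -0.67 (0.113, and 0.0316 with it) were called. The lipid droplet coat gene Plin2, a classic reporter of fatty acid load, was at -0.06 (95% interval -0.3 to 0.17). The PPAR targets Angptl4 and Pdk4 were at -0.02 (95% interval -0.64 to 0.6) and -0.07 (95% interval -1.05 to 0.91). None of these passed, and the wide intervals of Angptl4 and Pdk4 do not show that they were unaffected.

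Of 9 fatty acid sensing receptors and coactivators, Ppara fell, with saline values of 10.95, 10.78 and 11.11 and metformin values of 9.3, 10.27 and 10.12. The liver X receptor Nr1h3 was at -0.40 (limma adjusted p = 0.0525, and 0.0320 with the replicate block), Hnf4a at -0.51 and Rxrb at 0.18, a sign that turned after quantile normalization (-0.02). Of 13 genes of fatty acid uptake and activation, 2 fell, the fatty acid translocase Cd36 (-1.29) and Got2 (-0.68), a mitochondrial aminotransferase also known as a plasma membrane fatty acid binding protein. Lipoprotein lipase Lpl was at -1.42 (limma adjusted p = 0.0598, and 0.0285 with the replicate block), and the transporter Slc27a1 at -0.43 did not pass.

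Among 8 tested lipid carriers of other families, 3 fell, the peroxisomal acyl-CoA binding protein Acbd5 (-0.62), the phosphatidylcholine carrier Pctp (-0.68) and Stard10 (-0.58). The acyl-CoA binding protein Dbi was at -0.04, and the sterol carrier Scp2 at -0.52 (limma adjusted p = 0.0870, and 0.0495 with the replicate block). Of 13 lipid droplet and lipolysis genes, 3 fell, the monoglyceride lipase Mgll (-0.94), Cideb (-1.13) and the lipase coactivator Abhd5 (-0.51). Cidec was at -1.65 (limma adjusted p = 0.0555, and 0.0488 with the replicate block). It is also one of the white adipocyte markers, and the part of fat in its value was not tested. Of 5 tested endocannabinoid genes, whose lipids Fabp5 and Fabp7 can carry, Napepld, which releases N-acylethanolamines, fell, at -1.66 ± 0.36 (SE). Napepld read 9.75, 10.74 and 9.07 with saline and 8.22, 8.11 and 8.25 with metformin. Its saline arrays had the order of the white adipocyte markers, with replicate 2 the highest and replicate 3 the lowest. The part of fat in the value of Napepld was not tested. The hydrolases Faah (-0.22) and Naaa (0.14) and the lipase Dagla (-0.06) did not pass, although Faah did after quantile normalization (limma adjusted p = 0.0298), which also turned the sign of Naaa (-0.02). Of the retinoid carriers related to this family, Rbp2 at 0.10 and Rbp7 at 0.06 were tested and did not pass, and the sign of Rbp7 turned after median-centring (-0.03), quantile normalization (-0.04) and with array weights (-0.01).

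Of these 20 calls, 3 held in each fit that left out 1 array, those of Acot2, Slc25a20 and Vnn1, all PPAR targets. Leaving out saline replicate 1 ended 17 of them, leaving out metformin replicate 1 or metformin replicate 2 ended 9 each, saline replicate 3 ended 8, metformin replicate 3 ended 6 and saline replicate 2 ended 0. The plain test made none of the 20.

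**Figure D4:**
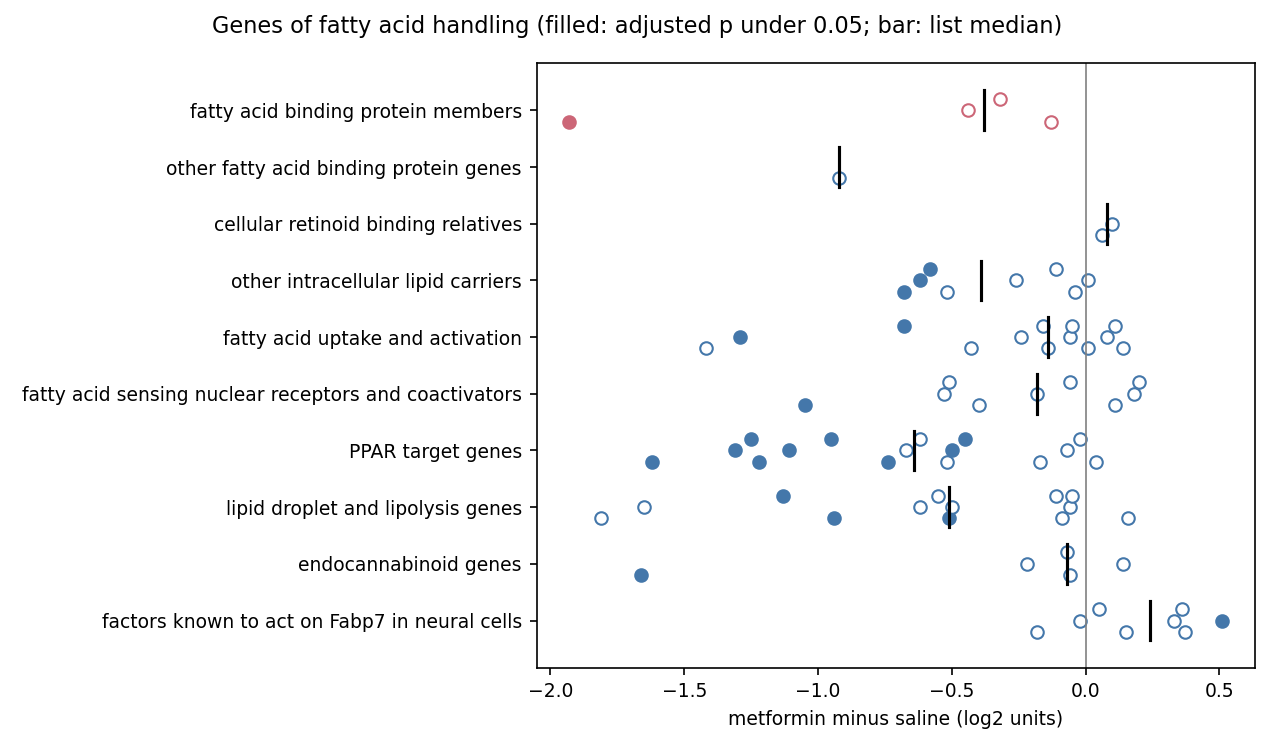
Difference between metformin and saline (horizontal axis, log2 units) for each tested gene of the members and of 9 lists (vertical axis). Filled points have an adjusted p under 0.05 and bars are list medians. Most filled points lie left of 0, the PPAR targets have a median of -0.64, and Nfix is the filled point right of 0.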

How the data were processed

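Whole-kidney RNA of 6 mice was measured on 1 array each. The authors deposited 1 log2 value per transcript cluster and array, for which the submitters' processing notes name RMA and Transcriptome Analysis Console 4.0. Some exceed 16, the log2 limit of a 16-bit scanner, so a fold is one of deposited values. The number of arrays limits the precision.

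Of 65956 clusters, 30604 have 1 platform symbol, updated through the Entrez number. The 33.3% with the lowest mean (4.03 or less) were left out, and the cluster of the highest mean was kept per gene. limma 3.58.1 in R 4.3.3 was fitted to all 22087 genes, two-sided, with Benjamini-Hochberg adjustment over all of them and a threshold of 0.05.

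Members and lists were chosen with earlier results of these data known. The rule for names took the members, the rest of the family, the called genes and the 4 of smallest p in each list, and the genes nearest to each member, of which the text names a part. Fabp3-ps1, the loosened motif and examples outside this rule (Plin2, Angptl4, Pdk4, Cpt1a, Ehhadh, Dbi, Nfia, Pax6, Hes1, Pou3f2 and the markers named) were picked after values were seen. Listed genes without a cluster of their own were not analysed here.

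Deviations from the group means correlated at 0.118, 0.145 and 0.541 across genes for replicate numbers 1, 2 and 3 of the labels. Saline 2 with metformin 1 reached 0.299, above the values of numbers 1 and 2. The labels state no pairing of saline with metformin mice, and these values do not establish one. The block on the number was therefore only an alternative. It is given where it changed a call, and a call made with the block alone is not counted as one.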

Additional observations from a re-analysis of the deposited data

How the results depend on the processing

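Fabp7, Fabp1, Fabp3 and Fabp5 kept a difference below 0 in all 15 alternatives. Leaving out 1 array gave -2.37 to -1.56 for Fabp7, -0.38 to -0.23 for Fabp1, -0.60 to -0.20 for Fabp3 and -0.24 to -0.06 for Fabp5. Beyond the spread between replicates, only Fabp1 moved, to -0.50 after quantile normalization, which also moved the median of all genes from 0.02 to -0.10. Relative to that median its difference was still below 0. Of all genes 3488 were called, 842 to 3961 without 1 array and 44 by the plain equal-variance test. Of those called, 42.5% were higher with metformin, 25.2% with median-centred arrays and 20.7% with quantile normalization. Of the listed genes 20 were called, 3 to 24 without 1 array and 0 by the plain test. For the other family genes the count was 0, and 0 to 1 without 1 array. The replicate block gave 4370 calls over all genes and 26 among the listed genes, and among the members, Fabp4 and the genes of the 8 lists changed no call other than those of Cpt2, Cpt1a, Ehhadh, Lpl, Nr1h3, Scp2, Cidec and Notch1. Naaa (-0.02) and Rxrb (-0.02) turned sign after quantile normalization, and Rbp7 (-0.07 to 0.21 without 1 array) did so without saline replicate 2 (-0.07) or metformin replicate 1 (-0.06), after median-centring (-0.03), quantile normalization (-0.04) and with array weights (-0.01). The cause was not tested. Low signal limits what can be said of Fabp2, Fabp6, Fabp9, Fabp12 and Pmp2, and Fabp5 lay near the array medians.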
